A study of Capra hircus with 2 samples.

Results

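The 5 miRNAs described here are miR-17, miR-20a, miR-93, miR-106b and miR-18a, each by its 5p arm. They were chosen by sequence, among 541 families of miRNA-sized tags that could be compared between the libraries. All 5 were found. A tag of 18 nt or more was assigned to a member if its 5′ end fell on base 1 of the mature form or 1 or 2 bases inside it. The overlap of tag and mature form had to be free of mismatches, with an overhang of at most 3 nt, and ambiguous tags were left out.

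Small RNA of the mammary gland of dairy goats was sequenced at both ends of the secretory cycle. The early involution library stands for goats 5 days past a forced weaning in late lactation, 218 days after parturition. The early lactation library stands for goats 10 days after parturition. Each library was a single pool with equal amounts of RNA from 5 goats of that stage. The labels give no breed, genotype, age or drug treatment. There was 1 library per stage, so the spread between goats is unknown and the stages could not be tested against each other. Every interval below is a 95% interval for counting error alone. Weaning and the time since parturition differ together between the libraries and cannot be told apart.

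A miRNA pairs with its target mRNAs mainly through its seed, bases 2 to 8, and lowers their translation and stability. In mammals miR-17, miR-18a and miR-20a are cut from the transcript of the miR-17-92 cluster, which the MYC transcription factor switches on in dividing cells. In mammals miR-106b and miR-93 come with miR-25 from an intron of MCM7, a replication licensing gene. Known targets of the miR-17 seed in human and mouse cells include the cell cycle inhibitor CDKN1A and the cell death factor BCL2L11. The mammary gland stops secreting after weaning, and its epithelium dies back and is remodelled.

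The members are nearly one sequence. Each is shown as its commonest deposited tag of the usual mature length, in DNA letters from 5′ to 3′, because every level below rests on telling them apart. Capitals mark the seed.
miR-17: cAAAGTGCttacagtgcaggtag
miR-20a: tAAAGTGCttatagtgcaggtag
miR-93: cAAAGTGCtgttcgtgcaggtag
miR-106b: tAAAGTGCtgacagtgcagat
miR-18a: tAAGGTGCatctagtgcagatag
The first 4 share a seed, and miR-18a has its own, which departs from it at a single base (A4G against miR-20a, counted from 1 at the 5′ end). Of the first 21 positions, 13 hold the same base in all 5 members. The nearest pair was miR-17 and miR-20a, which differ by C1T and C12T over 23 bases. The most distant was miR-93 and miR-18a, with 7 differences over 23 bases. All 5 have a gene symbol in the RefSeq table of goat assembly ARS1.2, where MIR17, MIR18A and MIR20A lie side by side with MIR19A, MIR19B and MIR92A, and MIR106B and MIR93 lie beside MIR25.

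The paralogue miR-106a also carries the miR-17 seed and differs from miR-17 by C1A alone. It is shown because tags that lack their first base cannot be assigned to one or the other.
miR-106a: aAAAGTGCttacagtgcaggtag

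The early involution library held 7385833 clean tags and the early lactation library 18031615, so lactation was 2.44 times deeper. Families of miRNA-sized tags took 81.1% of the tags in involution and 85.4% in lactation. Levels are given as TPM, the number of tags in every 1000000 clean ones. The epithelial miRNA miR-200c, a marker of the labelled tissue, was abundant in both libraries, at 11255 TPM in involution and 15212 TPM in lactation. The median ratio of involution to lactation over 532 families with tags in both libraries was 1.54, a log2 ratio of 0.62. To be called higher a miRNA needed a ratio of 2 or more, and to be called lower one of 0.5 or less. The interval also had to exclude 1, and 1 library or both had to show 10 TPM.

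The libraries were not alike before counting. Of the high-quality reads, 14.0% were discarded as 5′ adaptor contaminants in involution and 0.0505% in lactation, and 7.73% held no insert in involution and 0.945% in lactation. Reads shorter than 18 nt were 4.14% in involution and 0.92% in lactation, and clean reads 73.9% and 97.9%. The part of these differences in the levels and ends below was not tested.

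Together the 5 miRNAs took 2024 TPM in early involution (1992 to 2057, on 14949 tags) and 996 TPM in early lactation (982 to 1011, on 17966 tags). The 4 miRNAs of the miR-17 seed accounted for nearly all of this, with 1980 TPM in involution and 990 TPM in lactation. Their summed ratio was 2.0 (1.96 to 2.04), at the edge of the 2-fold limit. Without miR-93 the sum was 1287 TPM in involution and 410 TPM in lactation, a ratio of 3.14 (3.05 to 3.24). The most abundant member thus held the ratio of the whole seed down.

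By the size rule 4 of the 5 members were higher in involution and none was lower, beside 40.9% of all 541 families that were higher (221) and 5.36% that were lower (29). The median log2 ratio of the 5 members was 1.78, against 0.62 over all families and 1.47 over the 49 miRNAs recognised by name, members included. Of those 49, 55.1% were higher and 6.12% lower, so the members lay nearer to the named miRNAs than to all families. In lactation miR-18a did not reach 10 TPM, so it entered the comparison through involution alone, where it was high. With median-of-ratios factors, which lower every log2 ratio by 0.62, 3 of the 5 were higher and none was lower, beside 30.3% and 17.7% of the families. The member that dropped below 2-fold under those factors was miR-20a, at a log2 ratio of 0.84.

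**Figure D1:**
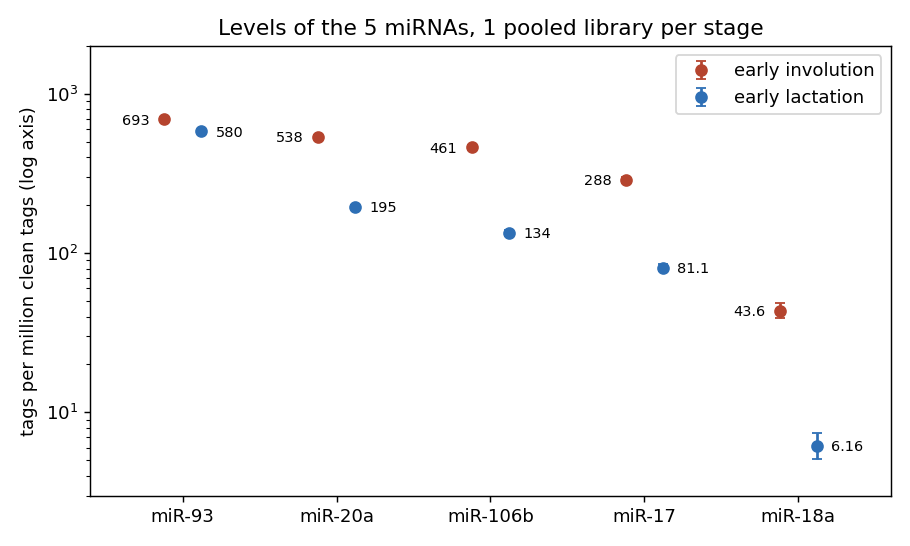
Level of each member in TPM on a log axis, with early involution left of early lactation for each miRNA and bars for the 95% Poisson interval of counting error. Both stages keep the order miR-93, miR-20a, miR-106b, miR-17, miR-18a, and the gap between stages is narrowest for miR-93, at 693 and 580.

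The most abundant member was miR-93, of the miR-106b-25 cluster. Its level was 693 TPM in involution (674 to 712, on 5120 tags) and 580 TPM in lactation (569 to 592, on 10466 tags). The ratio was 1.19 (1.15 to 1.24), beyond counting error but far from the 2-fold limit, and under the median ratio of all families. Its direction depended on the scaling, with a log2 ratio of 0.26 by all clean tags, -0.37 with median-of-ratios factors and -0.41 with TMM factors (edgeR's trimmed mean of M-values).

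The cluster neighbour miR-106b differed from it. It had 461 TPM in involution (446 to 477) and 134 TPM in lactation (129 to 139), a ratio of 3.44 (3.27 to 3.63). Where involution held 0.665 miR-106b tags for each miR-93 tag, lactation held 0.231. Their ratios were thus 2.88-fold apart, which no scaling between the libraries can alter. The third miRNA of that cluster, miR-25, has another seed and stood between them, at 849 TPM in involution and 424 TPM in lactation, with a ratio of 2.0 (1.94 to 2.07).

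Among the members of the miR-17-92 cluster, miR-20a was the most abundant, with 538 TPM in involution (521 to 555) and 195 TPM in lactation (188 to 201). Its ratio was 2.76 (2.64 to 2.89). The level of miR-17, the first miRNA of the cluster, was 288 TPM in involution (276 to 301) and 81.1 TPM in lactation (77.0 to 85.3), a ratio of 3.56 (3.32 to 3.80). The rarest member, miR-18a, is known to target the oestrogen receptor mRNA ESR1 in human breast cancer cells. It had 43.6 TPM in involution (39.0 to 48.6, on 322 tags) and 6.16 TPM in lactation (5.06 to 7.41, on 111 tags). Its ratio of 7.08 (5.69 to 8.87) was the highest of the 5 and the least precise. When only tags identical to the mature sequence were counted it was 3.57, and miR-106b was highest at 10.4.

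In rank among all families, miR-17 stood at place 109 in involution and 165 in lactation, miR-20a at 78 and 105, and miR-106b at 85 and 122. The rank of miR-93 went the other way, to 70 in involution against 61 in lactation. The order of the 5 members by level was the same in both libraries, and no intervals of neighbours in that order overlapped within a library. Compositions of the sequences ranged from 39.1% G+C for miR-20a to 52.2% for miR-93. Over the 532 families the log2 ratio had a Pearson correlation of 0.0066 and a Spearman correlation of 0.019 with G+C content, as a description of families that share both libraries.

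**Figure D2:**
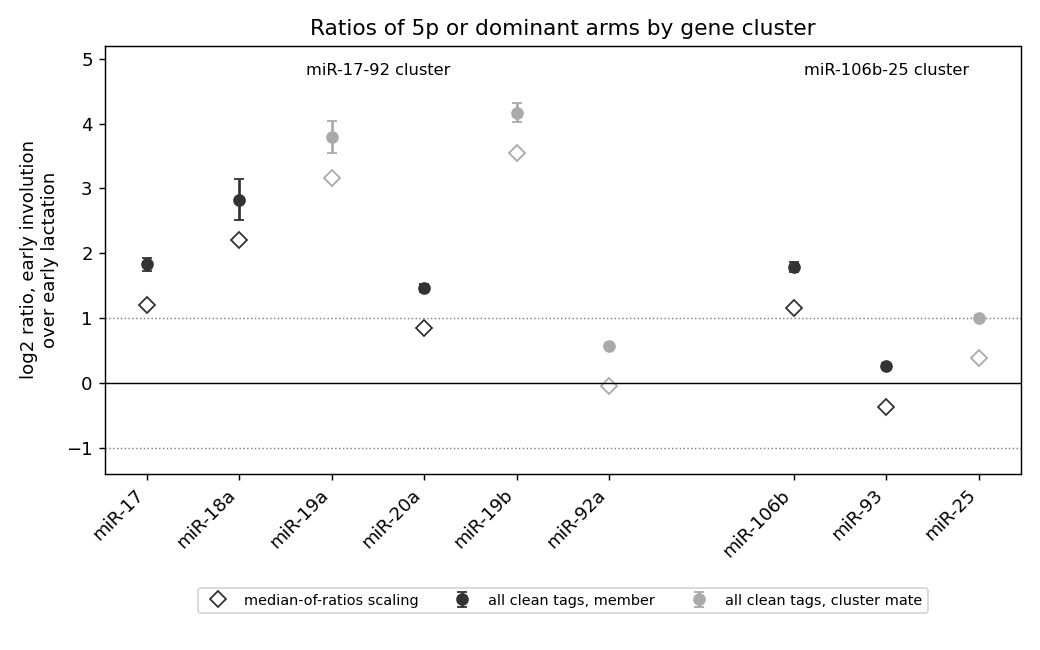
Log2 ratio of early involution over early lactation for the miRNAs of both clusters, with 95% intervals for counting error where scaled to all clean tags (filled) and the same values with median-of-ratios factors (open). Dotted lines mark the 2-fold limits, and within each cluster the members spread widely, from 0.57 for miR-92a to 4.17 for miR-19b in the first and from 0.26 for miR-93 to 1.78 for miR-106b in the second.

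The miRNAs of a cluster thus differed in ratio. In the miR-17-92 cluster, 5 of 6 miRNAs were called higher, beside 40.9% of all families, and the median log2 ratio was 2.33 beside 0.62. With median-of-ratios factors 4 of 6 were, beside 30.3%. Beside the 3 members, miR-19a and miR-19b, which carry the miR-19 seed, had log2 ratios of 3.79 and 4.17, and miR-92a 0.57. With median-of-ratios factors miR-92a turned to -0.05, and with TMM factors to -0.09. Among the members of that cluster the ratios of miR-17 and miR-20a were 1.29-fold apart, those of miR-17 and miR-18a 1.99-fold, and those of miR-18a and miR-20a 2.56-fold. Across the clusters the ratios of miR-17 and miR-106b were 1.03-fold apart, but 3.24-fold apart when only identical tags were counted.

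The makeup of the pool shifted accordingly, and these shares do not depend on any scaling. Of the tags of all 5 members, miR-93 took 34.2% in involution (33.5 to 35%) and 58.3% in lactation (57.5 to 59.0%). The share of miR-20a was 26.6% in involution and 19.5% in lactation, that of miR-106b 22.8% and 13.4%, and that of miR-17 14.2% and 8.14%. The share of miR-18a was 2.15% in involution (1.93 to 2.40%) and 0.618% in lactation (0.509 to 0.744%). In lactation a single miRNA thus outweighed all the other members together, while in involution none did.

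**Figure D3:**
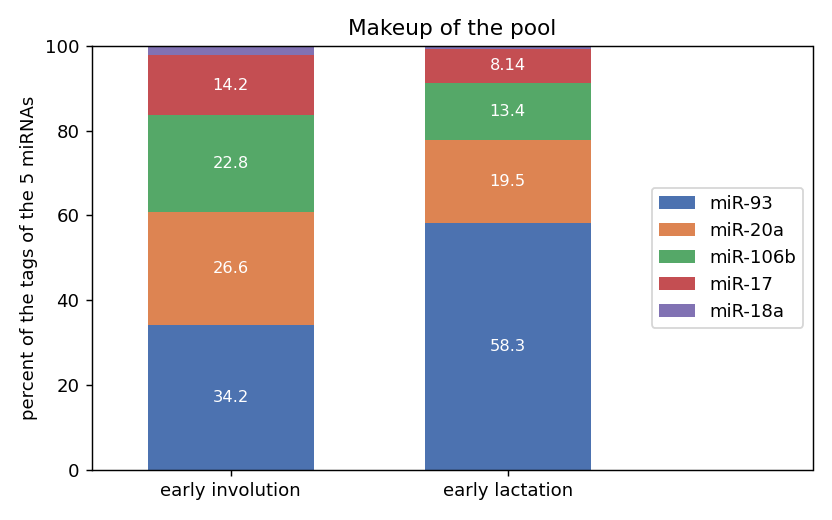
Share of each member among the tags of all 5, with early involution left and early lactation right. The share of miR-93 is 34.2% in involution and 58.3% in lactation, and every other member has the larger share in involution.

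For miR-17 and miR-106b the ratio of the opposite arm was smaller than that of the 5p arm. The 3p arm of miR-17 had 94.1 TPM in involution and 57.5 TPM in lactation, a ratio of 1.64 (1.48 to 1.80). The 5p arm therefore made up 75.4% of both arms in involution (73.8 to 77.0%) and 58.5% in lactation (56.5 to 60.4%). This arm is shown because it made up much of the hairpin's output in lactation, with 1037 tags beside 1462 of the 5p arm.
miR-17-3p: aCTGCAGTgaaggcacttgtag
For miR-106b the 5p share was 94.0% in involution (93.1 to 94.7%) and 82.8% in lactation (81.4 to 84.2%), with a 3p level of 29.7 TPM in involution and 27.7 TPM in lactation. With identical tags alone the 3p arm had 44 tags in involution and 198 in lactation, which turned its ratio to 0.543 (0.382 to 0.755), and the 5p share was 96.2% in involution and 56.7% in lactation. For miR-20a the ratio of the opposite arm was the larger one, on a rare 3p arm with 65 tags in involution and 9 in lactation, a ratio of 17.6 (8.74 to 40.3). Its 5p share was 98.4% in involution and 99.7% in lactation. The 3p arm of miR-18a had 2 tags in involution and 4 in lactation. No tag of the usual length was found for that of miR-93, and tags with its first 12 bases numbered 0 in involution and 1 in lactation.

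The 3′ ends of all 5 members also differed between the stages beyond counting error, in 1 kind of end or more. For miR-93 the differences were small in percentage points. Its tags that had lost bases and carried others were 3.13% in involution (2.67 to 3.63%) and 1.36% in lactation (1.15 to 1.60%). These shares were taken over tags that began at the first base, matched at least 18 bases and carried at most 3 further bases. For miR-17, tags shorter than the mature sequence were 14.5% in involution (13.1 to 16%, 330 of 2275) and 2.64% in lactation (1.89 to 3.59%, 39 of 1476). For miR-20a they were 12.5% in involution (11.5 to 13.6%) and 2.1% in lactation (1.65 to 2.63%). For miR-18a they were 49.4% in involution (43.9 to 54.9%, 164 of 332) and 9.91% in lactation (5.05 to 17%, 11 of 111). All 3 members of the miR-17-92 cluster thus had more shortened tags in involution, beyond counting error.

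Their cluster mate miR-92a showed almost no such difference, at 0.0621 percentage points with overlapping intervals. For miR-19a and miR-19b shortened tags were also the larger share in involution, by 6.86 and 4.81 points. The intervals of the stages overlapped for both, on only 184 and 485 tags in lactation. Such overlap cannot decide whether miR-19a and miR-19b share the difference. For miR-93 the shorter tags were 6.46% in involution (5.81 to 7.16%) and 7.47% in lactation (6.97 to 7.99%). Its cluster mate miR-25 had a difference of -0.48 points. For miR-106b, tags shorter than the usual 21-nt form were 18.1% in involution (16.9 to 19.4%) and 31.3% in lactation (29.6 to 33.1%). The direction turned when its ends were counted from its commonest tag of 22 nt, with 49.2% shorter in involution (47.6 to 50.9%) and 41.0% in lactation (39.1 to 42.9%). Among 120 other families with at least 1000 tags in each library the median difference was 0.172 percentage points. Positive differences at least as large as those of miR-17 and miR-20a were found in 11 of the 120, or 9.17%. Among them 1 reached that of miR-18a, which itself had fewer than 1000 tags in each library. Differences of the other sign were also large, down to -58.5 points. A difference as low as that of miR-106b against its 21-nt form, -13.2 points, was found in 17 of the 120.

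Single tags show where the ends lay. The tags below are those of miR-17 with the full length, with 1 and 2 bases removed, with a changed last base and with an added A. They are shown because the stages differ in their proportions.
miR-17, 23 nt: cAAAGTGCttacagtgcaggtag
miR-17, 22 nt: cAAAGTGCttacagtgcaggta
miR-17, 21 nt: cAAAGTGCttacagtgcaggt
miR-17, 23 nt with a changed end: cAAAGTGCttacagtgcaggtat
miR-17, 24 nt: cAAAGTGCttacagtgcaggtaga
The full-length tag had 1669 counts in involution and 1268 in lactation, a ratio of 3.21 (2.99 to 3.46). The 22-nt tag had 174 counts in involution and 17 in lactation, the 21-nt tag 107 and 8, and the tag with the changed end 48 and 5. The 24-nt tag, longer by A, had 92 counts in involution and 132 in lactation, and its ratio was only 1.70 (1.29 to 2.24). The ratio was 25 (15.2 to 43.9) for the form that lacked the last base and 32.7 (16 to 77.6) for the one that lacked 2, so the forms of a single miRNA differed widely between the stages.

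Tags that had lost bases and carried others in their place were commoner in involution for miR-17, at 6.42% (5.45 to 7.50%) against 0.949% in lactation (0.520 to 1.59%). The same held for miR-20a, at 6.95% in involution (6.20 to 7.76%) and 0.653% in lactation (0.414 to 0.978%), and to a lesser degree for miR-93. For miR-18a there were 13 such tags in involution and 0 in lactation, with overlapping intervals. In miR-106b they were rarer in involution, at 4.52% (3.86 to 5.26%) against 10.2% in lactation (9.13 to 11.5%). Counted from its 22-nt tag, the shares of miR-106b were 8.75% in involution and 15.5% in lactation. The first base put in was mostly A or T, in 157 and 118 of the 294 such tags of miR-20a in involution and in 10 and 6 of the 23 in lactation. Positive differences in such tags at least as large as the member's were found in 6 of the 120 other families for miR-17 and in 5 for miR-20a. For miR-17 and miR-20a, full-length tags with an added A were instead rarer in involution. They were 4.48% in involution (3.67 to 5.42%) and 9.76% in lactation (8.29 to 11.4%) for miR-17, and 6.10% in involution and 9.96% in lactation for miR-20a. No genomic sequence of the hairpins was used here, so an added base was not told apart from one that the gene encodes.

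**Figure D4:**
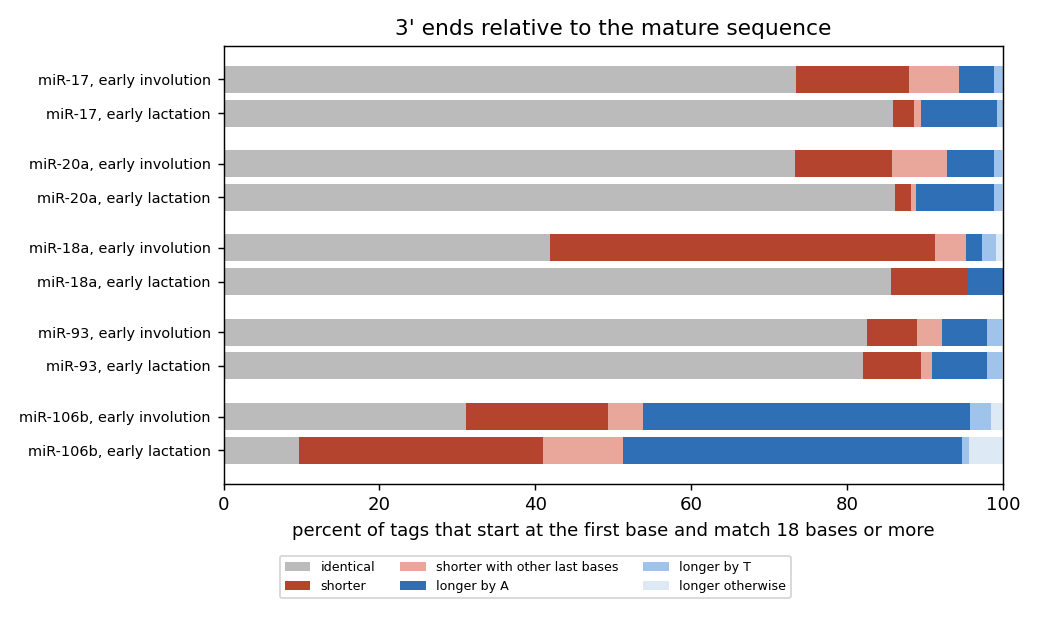
Share of each kind of 3′ end among the tags of a member, with early involution above early lactation. Shortened tags are the larger share in involution for miR-17, miR-20a and miR-18a, close to equal for miR-93, and smaller in involution for miR-106b against its 21-nt form, which turns round against its 22-nt form.

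The ends of miR-106b were spread over 3 lengths, all shown because its ratio depends on which is counted.
miR-106b, 22 nt: tAAAGTGCtgacagtgcagata
miR-106b, 21 nt: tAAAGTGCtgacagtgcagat
miR-106b, 20 nt: tAAAGTGCtgacagtgcaga
The 22-nt tag was the commonest, with 1174 counts in involution and 1106 in lactation, a ratio of 2.59 (2.39 to 2.82). The 21-nt tag, the usual mature form, had 1103 counts in involution and 259 in lactation, a ratio of 10.4 (9.07 to 12). The 20-nt tag had 534 counts in involution and 770 in lactation, a ratio of 1.69 (1.51 to 1.89). Scaled to all clean tags, all 3 forms had the higher level in involution, and the 21-nt form had by far the highest ratio of them. The ratio of the 20-nt form was near the median of 1.54 over all families, which its interval included. Counting error thus does not separate it from that median, and its size depends on the scaling.

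Similarly, the 21-nt form of miR-18a was nearly missing in lactation. It had 90 counts in involution and 2 in lactation, against 139 and 95 for the full-length form.
miR-18a, 21 nt: tAAGGTGCatctagtgcagat

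**Figure D5:**
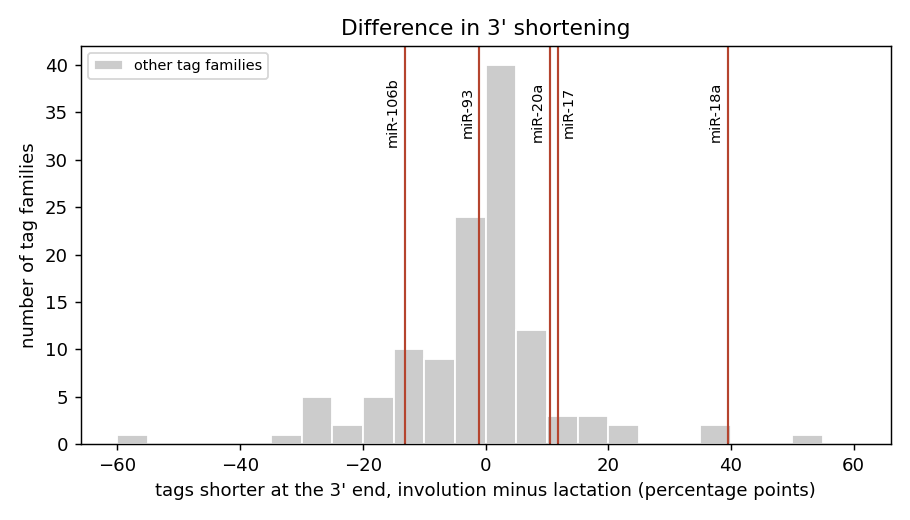
Difference in the share of tags shorter at the 3′ end, early involution minus early lactation in percentage points, for 120 other tag families (grey histogram, bins of 5 points) and the 5 members (red lines). The lines of miR-17 and miR-20a lie at 11.9 and 10.4, that of miR-18a at 39.5, that of miR-93 at -1.0 and that of miR-106b, counted from its 21-nt form, at -13.2 (8.28 from its 22-nt form).

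The 5′ ends set the seed. The assignment rule took only tags that began at the first base or lacked 1 or 2 bases. Tags with extra bases at the 5′ end, or lacking more, were thus not measured, and only the share within the rule can be given. Tags that lacked 1 or 2 bases made up 0.931% of miR-20a in involution (0.657 to 1.28%) and 0.313% in lactation (0.156 to 0.560%). For miR-93 the shares were 0.781% in involution and 0.822% in lactation, and for miR-106b 0.734% and 0.290%. For miR-17 no share could be given, since all 61 such tags in involution and 13 in lactation also fitted miR-106a and were set aside.

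Markers of other cell types were counted by the same rule, to be read beside the 40.9% of all families that were higher and the 5.36% that were lower. In bulk tissue fewer cells of a type and less RNA per cell cannot be told apart. Of 6 leukocyte miRNAs 5 were higher and 1 lower, and their summed level was 1507 TPM in involution and 1218 TPM in lactation. The lower one, miR-155, was also the most abundant in lactation, with 481 TPM in involution and 987 TPM in lactation. Of 3 erythroid miRNAs 2 were higher, with a summed level of 3051 TPM in involution and 910 TPM in lactation. Of 7 epithelial miRNAs 3 were higher, with sums of 25954 and 20689 TPM, and of 5 stromal and smooth muscle miRNAs 2, with sums of 320911 and 310622 TPM, both shares close to that of all families. Single miRNAs weighed heavily in these sums. The epithelial miR-375 had 5039 TPM in involution and 208 TPM in lactation, while the most abundant one, miR-200c, had 11255 and 15212. The stromal sum was nearly all miR-143, at 318833 TPM in involution and 310018 TPM in lactation. The 2 endothelial miRNAs were both arms of 1 hairpin. The 5p arm was called higher, at a ratio of 4.18, and the 3p arm, at 0.773, was called neither. Their sums were 7085 TPM in involution and 7584 TPM in lactation. Of 3 skeletal muscle miRNAs 1 was higher and none lower, with sums of 1102 and 1467 TPM. In both of these lists the sum was thus smaller in involution although 1 miRNA was called higher. The leukocyte and stromal lists also each counted both arms of 1 hairpin. With median-of-ratios factors the skeletal muscle list had 1 higher and 2 lower, and the epithelial list 2 higher and 2 lower. The counts of the other marker lists did not change. With TMM factors the counts were the same, but for 1 endothelial miRNA that became lower. None of these markers was at 0. Their part in the levels of the miR-17 and miR-18 seed miRNAs was not tested.

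Growth-restraining miRNAs, a list of 10 from the let-7, miR-15/16 and miR-34 families, were set beside the members. Of these 4 were higher, 2 lower and 4 neither, a share of higher ones close to the 40.9% of all families. The share of lower ones, on only 2 miRNAs, was above the 5.36% of all families. The median log2 ratio of the list was 0.13, under the 0.62 of all families. The lower ones rose to 3 by median of ratios, beside 17.7% of all families, and to 4 by TMM. The abundant let-7a had 49574 TPM in involution and 63872 TPM in lactation. The cyclin-repressing miR-15b had 258 TPM in involution and 19.7 TPM in lactation, a ratio of 13.1 and the highest of the 10.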

How the data were processed

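The notes deposited beside the data name these steps for the authors' reads: quality filtering, 3′ adaptor trimming, and removal of 5′ adaptor contaminants, of polyA and of tags shorter than 18 nt. They state a range of 18 to 30 nt, while the files hold tags up to 44 nt. The deposited values are raw counts of reads per distinct tag, and a filtering log gives read counts at each step. An aligner or genome build is not given in the sources used here. Reads carry no molecular identifiers, so intervals cover counting error only.

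No table of mature sequences was used. Each miRNA was recognised by its seed and a few further bases known for the conserved mammalian form. Its mature sequence was then read from the files as the commonest tag of the usual length. Of 54 sequences sought, 52 were found. For comparison, every other start of 18 bases that reached 10 TPM was taken as a family if its commonest tag had 20 to 24 nt. Starts shifted by up to 3 bases from another were dropped, and so were starts 1 mismatch from one 20 times as abundant. This left 499 unnamed families, which can include fragments of other RNAs. They replaced the reference list planned for the background and scaling. The members and lists were chosen with earlier results of these data known. Named are the members, their opposite arms, their cluster mates and paralogues, the commonest tags, and the miRNAs nearest in ratio. Outside this rule miR-200c, let-7a, miR-15b, miR-155, miR-375 and miR-143 were named after their values were seen.

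Levels carry exact Poisson, shares Clopper-Pearson and ratios conditional Clopper-Pearson intervals. A count of 0 allows up to 3 counts, or 0.406 TPM in involution and 0.166 in lactation. Alternatives covered scaling, assignment, tag length, level filter and depth, and 6 more were chosen after seeing the data. The interval and call procedure was tested on simulated data. Python 3.11.15, numpy 2.4.6, scipy 1.17.1 and edgeR 4.0.16 under R 4.3.3 were used.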

Additional observations from a re-analysis of the deposited data

How the results depend on the processing

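No paired analysis was possible because each stage had 1 library. Under 13 alternatives for each member (12 for miR-18a, which shares its first 18 bases with miR-18b), miR-17, miR-106b and miR-18a stayed at least 2-fold higher, with lowest ratios of 2.25, 2.18 and 3.57. For miR-20a 11 of 13 did, all but the median-of-ratios factors and the TMM ones, under which miR-93 fell below 1. Identical tags alone put miR-106b at 10.4. They moved miR-18a to 3.57 and the 3p arm of miR-106b to a log2 ratio of -0.88. Against the 22-nt tag, a choice made after seeing the data, the difference in shortened miR-106b tags was 8.28 points in place of -13.2. Of the members 3 or 4 were called higher and none lower in every setting run. The log2 ratio of the summed miR-17 seed, 1.0, was 1.07 scaled to tags in families, 0.38 by median of ratios, 0.34 by TMM, 0.92 with identical tags, 1.03 with 1 mismatch and 1.04 by the first 18 bases. With identical tags 3 of 5 members kept their place in the order of levels in each library, as miR-17 and miR-106b changed places. Of the families, 29 were lower, against 96 by median of ratios and 104 by TMM, which shift every ratio down. At a minimum of 100 TPM 75 of 193 families were higher and 12 lower. Among the named miRNAs alone, a choice made after seeing the data, 27 of 49 were higher and 3 lower. The last 2 settings test fewer families. The cause of the other shifts was not tested. Depth limits miR-18a most, with 111 tags in lactation.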

Other observations

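The third cluster with these seeds, miR-106a-363, was weakly expressed in both libraries. Its miR-106a had 17.5 TPM in early involution (14.6 to 20.8, on 129 tags) and 2.61 TPM in early lactation (1.92 to 3.47, on 47 tags), a ratio of 6.70 (4.76 to 9.57). Its miR-363, which carries the miR-92 seed, had 32.4 TPM in involution and 3.77 TPM in lactation, a ratio of 8.58 (6.53 to 11.4). The level of miR-18b was 2.84 TPM in involution, on 21 tags, and 0.166 TPM in lactation, on 3 tags, a ratio of 17.1 (5.10 to 89.5). No tag with the first 12 bases of miR-20b was found in either library, although the RefSeq table lists its gene, which allows up to 0.406 TPM in involution and 0.166 TPM in lactation. Both miRNAs of this cluster that reached 10 TPM did so in involution alone.

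Of 32 other recognised miRNAs with at least 100 TPM in a library, those nearest to the summed miR-17 seed in log2 ratio were miR-25, miR-199a-3p and miR-141, at 0.0024, -0.38 and 0.40 from it over these 2 libraries.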
